A study of Bos taurus with 6 samples.

Results

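Genes that handle fatty acids were followed in cultured strips from the cortex (outer zone) of cattle ovaries, some of them exposed to palmitic, stearic and oleic acid. The 7 genes were chosen for their known roles, by their Ensembl cattle identifiers. LPL (ENSBTAG00000012855) and CD36 (ENSBTAG00000017866) stand for uptake, FABP4 (ENSBTAG00000037526) for carriage inside the cell and CPT1A (ENSBTAG00000021999) for oxidation. ACACA (ENSBTAG00000017567), FASN (ENSBTAG00000015980) and SCD (ENSBTAG00000045728) stand for synthesis. Of these, 6 were among the 15265 genes with deposited values. SCD, which makes monounsaturated from saturated fatty acids, was not among them and so has no result here. The symbols are those given with the list of identifiers, because the deposited table holds identifiers alone and the gene table used here matched 0 of them. For the same reason, no position, annotation or sequence is given, and markers of ovarian cell types were not analysed here.

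The strips came from abattoir ovaries after natural follicles had been removed, and were randomly assigned to control medium (CON) or to high non-esterified fatty acids (NEFA). Culture lasted 8 days at 38.5 °C in 5% CO2, and medium was supplemented at 25% on alternate days. The high NEFA group received the 3 fatty acids at 0.72 mM in combination; the labels' treatment text is the same for control samples, so their lack of the mixture rests on the group label. Each group has 3 libraries, numbered 2, 4 and 5, made from total RNA and read near the 3′ end of transcripts. The labels do not say whether the numbers stand for separate ovaries, so the p-values here speak only for the spread among these samples, which may be technical. Neither breed nor age is given in the sources used here, and strips are a mixture of cells, so fewer cells of a type and less RNA per cell cannot be told apart.

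Non-esterified fatty acids are released from body fat and circulate at raised levels in cows whose energy demand exceeds intake. Cells take them up directly, helped by the membrane receptor CD36, or after lipoprotein lipase (LPL) has freed them from circulating triglyceride, and carry them in the cytosol on binding proteins such as FABP4. CPT1A, on the outer mitochondrial membrane, joins long-chain fatty acids to carnitine and so controls their entry into mitochondria for oxidation. New fatty acids are made from malonyl-CoA, the product of acetyl-CoA carboxylase (ACACA), by fatty acid synthase (FASN). Malonyl-CoA also inhibits CPT1A, which links synthesis to oxidation. In the ovary, fatty acid oxidation is known as an energy source for the maturing oocyte and its surrounding cells.

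The libraries held 204239 to 701514 reads outside the 2 most abundant genes, and 9157 to 11938 detected genes. In replicates 2, 4 and 5, those reads numbered 204239, 204431 and 533128 in controls and 384093, 400081 and 701514 in high NEFA cultures. Reads were recovered from the deposited log2-scale values, whose floor of 2.67 stands for 0 reads, and were whole within 0.1 reads for all values up to 500 reads, which covers every value of the 6 genes. Scaled reads are reads divided by the library's size factor (0.489 to 1.97). Control replicate 4, with the smallest factor, stood apart: it was at least 1 log2 unit below both other controls for 7.75% of the 4919 genes tested and above both for 4.49%. For control replicate 2, set against its group in the same way, these shares were 3.52% and 2.93%, for control replicate 5 they were 1.32% and 2.60%, and for the high NEFA libraries 0.468% to 1.57% and 0.529% to 0.935%.

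None of the 4 fatty acid genes with enough reads to test (LPL, CD36, CPT1A and FASN) differed between high NEFA and control cultures at an adjusted p under 0.05, and neither did any other gene: 0 of 4919 (0%) were called by limma's moderated test with Benjamini-Hochberg adjustment. Before adjustment, 145 genes (2.95% of those tested) had a p under 0.05, and none of the 4 was among them. With limma-voom on the recovered reads the counts were 0 and 95. A quasi-Poisson F test gave 0 and 72, but it takes each gene's spread from its own 6 libraries alone and has little power, so its 0 is no separate support. For LPL, CD36, CPT1A and FASN the high NEFA mean was the higher one, as it was for 53.9% of tested genes. Their median difference was 0.32 on the log2 scale, against 0.04 over all tested genes, with no test of the 4 as a set. Without control replicate 4 the differences were 0.24 for LPL, -0.0017 for CD36, 0.13 for CPT1A and -0.16 for FASN. In none of these 4 genes did the 2 groups separate without overlap. Of all tested genes, 8.54% did so (5% with high NEFA higher and 3.54% with it lower), and 4 genes are too few to differ from that share. In FABP4 and ACACA, with libraries at the floor in both groups, the groups could not separate. FABP4 and ACACA did not reach the filter of 14.1 CPM (reads for each 1000000 of the library's total) in 3 libraries and had no test there.

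**Figure D1:**
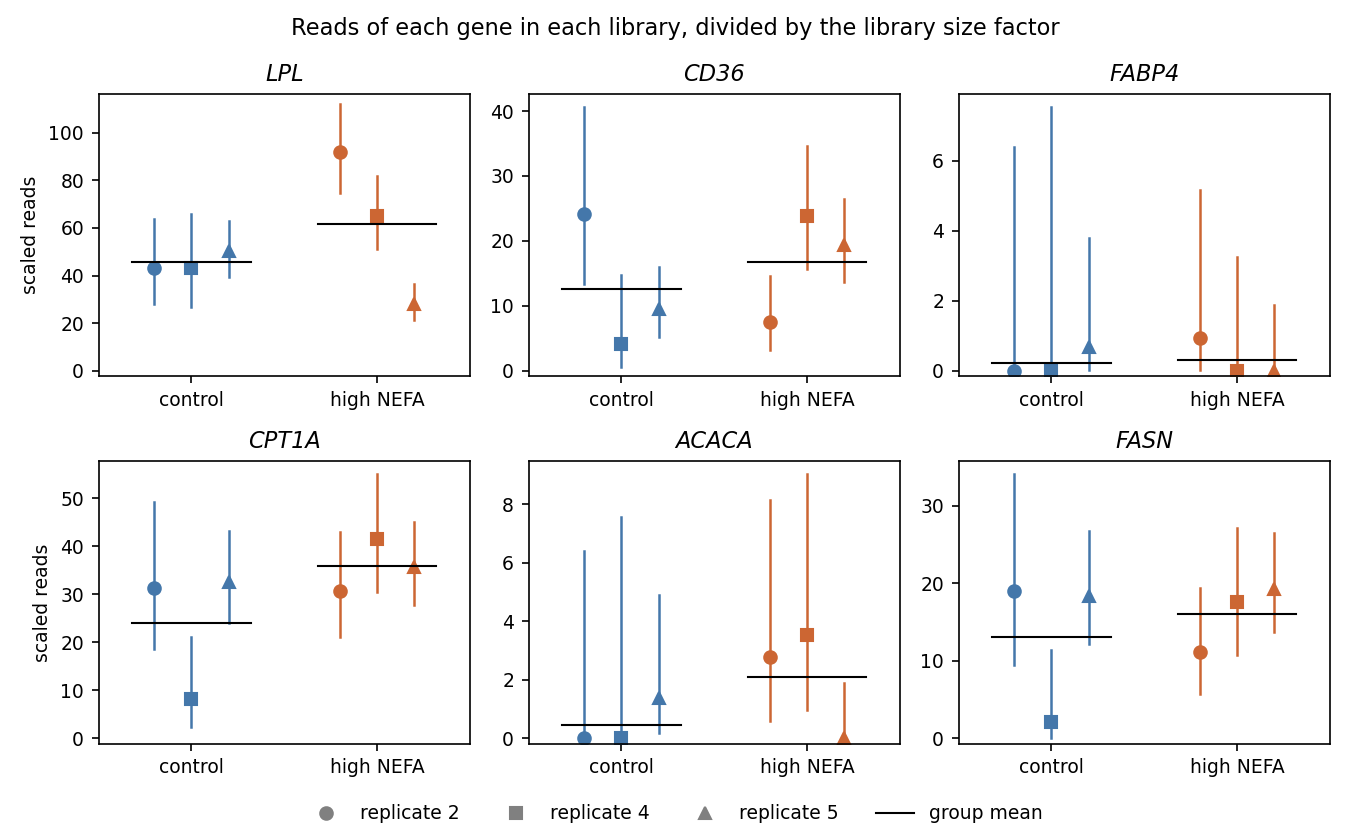
Scaled reads (reads divided by the library size factor) of each of the 6 genes in each library; each point is 1 library, vertical lines are exact 95% Poisson intervals of its reads (counting error only), and horizontal lines are group means. Control replicate 4 is the lowest library for CD36, CPT1A and FASN, high NEFA libraries of LPL run from 28.0 to 91.9, and FABP4 and ACACA lie at or near 0.

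LPL, the lipase that frees fatty acids from triglyceride, was the most abundant of the 6, at 53.6 scaled reads on average and above 92.3% of all genes in the table. Reads near the 3′ end do not grow with transcript length, so levels of different genes are given without division by length. In controls LPL was counted 25, 21 and 74 times in replicates 2, 4 and 5, which is 43.3, 43.0 and 50.2 scaled reads. In high NEFA cultures it was counted 99, 74 and 55 times, or 91.9, 65.2 and 28.0 scaled reads. Controls thus lay close together, while 2 high NEFA libraries lay above all controls and 1 lay below all of them.

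Controls averaged 45.5 ± 4.10 scaled reads of LPL and high NEFA cultures 61.7 ± 32.1 (SD, n = 3 per group). The difference on the deposited scale was 0.27 ± 0.38 (SE), with a 95% interval of -0.56 to 1.10 and a limma adjusted p of 0.962. Its direction rested on high NEFA replicate 2, without which it was -0.05, and it was 0.69 without high NEFA replicate 5. Among the 200 tested genes nearest to it in mean value, the SD of LPL in high NEFA cultures (0.76 on the log2 scale) was above that of 98.0%, and its SD in controls (0.11) above that of 6%.

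The high NEFA libraries differed in LPL by more than counting error, if reads are independent molecules. How many other tested genes did so was not counted. Replicate 2 held 3.28 times the LPL reads of replicate 5 for its size, with an exact 95% interval of 2.34 to 4.65. Replicate 4 held 2.33 times as many as replicate 5 (1.62 to 3.36). Between controls the ratios were within counting error, for example 1.01 (0.541 to 1.89) for replicate 2 over replicate 4. The pairs were chosen after their values were seen, and no test compared the spread of the 2 groups.

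CD36, the membrane receptor for long-chain fatty acids, was counted 14, 2 and 14 times in control replicates 2, 4 and 5, or 24.2, 4.09 and 9.50 scaled reads. In high NEFA replicates 2, 4 and 5 it was counted 8, 27 and 38 times, or 7.42, 23.8 and 19.3 scaled reads. Both the lowest and the highest library were controls, and the groups overlapped throughout. Controls averaged 12.6 ± 10.4 scaled reads and high NEFA cultures 16.8 ± 8.46 (SD, n = 3 per group).

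The difference of CD36 was 0.32 ± 0.40 (SE) on the log2 scale, with a 95% interval of -0.56 to 1.2 (limma adjusted p = 0.955). Without control replicate 4 it fell to -0.0017. The limma-voom fold, which is not compressed by the deposited scale, was 1.5 with a 95% interval of 0.595 to 3.81 (limma-voom adjusted p = 0.999). Libraries of 1 group differed by more than counting error here too: control replicate 2 held 2.55 times the CD36 reads of control replicate 5 for its size (exact 95% interval 1.13 to 5.77), and high NEFA replicate 2 held 0.312 times those of replicate 4 (0.123 to 0.706).

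FABP4, a cytosolic fatty acid carrier best known from adipocytes, macrophages and endothelium, was at the floor in 4 of 6 libraries. Its 2 reads in the whole series were 1 in control replicate 5 and 1 in high NEFA replicate 2. A count of 0 allows up to 5.19 and 6.14 scaled reads in control replicates 2 and 4, and up to 2.64 and 1.53 in high NEFA replicates 4 and 5. No fold is given, since both groups are under 3 reads; a difference was not detectable at this depth.

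CPT1A, the entry step of mitochondrial oxidation, was counted 18, 4 and 48 times in control replicates 2, 4 and 5, or 31.2, 8.18 and 32.6 scaled reads. In high NEFA replicates 2, 4 and 5 it was counted 33, 47 and 70 times, or 30.6, 41.4 and 35.6 scaled reads. Of the 6 libraries, 5 lay between 30.6 and 41.4, and control replicate 4 lay far under them. Of the high NEFA libraries, 2 were above all controls, and replicate 2 was just under control replicates 2 and 5.

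Controls averaged 24.0 ± 13.7 scaled reads of CPT1A and high NEFA cultures 35.9 ± 5.40 (SD, n = 3 per group). CPT1A had the largest difference of the 4 tested genes in this fit, 0.55 ± 0.38 (SE) on the log2 scale, with a 95% interval of -0.28 to 1.38 (limma adjusted p = 0.943). Differences at least this far from 0 were seen in 15.8% of tested genes. Without control replicate 4 the difference was 0.13, and the ratio of read rates of the 3 high NEFA libraries to control replicates 2 and 5 was 1.12 (0.830 to 1.51, exact 95% limits for counting error alone). With all controls this ratio was 1.3 (0.975 to 1.76).

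ACACA, which makes malonyl-CoA for fatty acid synthesis, was at the floor in 3 of 6 libraries, control replicates 2 and 4 and high NEFA replicate 5. It was counted 2 times in control replicate 5, 3 times in high NEFA replicate 2 and 4 times in high NEFA replicate 4. The ratio of its read rates, from 2 control and 7 high NEFA reads, was 2.13 (exact 95% limits 0.405 and 21.0). High NEFA replicate 5, with the most reads outside the 2 most abundant genes, held none, which allows up to 1.53 scaled reads. In a limma fit with no filter on low counts, the difference of ACACA was 0.32 and its adjusted p 0.898.

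FASN, the synthase itself, was counted 11, 1 and 27 times in control replicates 2, 4 and 5, or 19.0, 2.05 and 18.3 scaled reads. In high NEFA replicates 2, 4 and 5 it was counted 12, 20 and 38 times, or 11.1, 17.6 and 19.3 scaled reads. Control replicates 2 and 5 thus lay within the upper part of the high NEFA range, and control replicate 4 held a single read. Controls averaged 13.1 ± 9.61 scaled reads and high NEFA cultures 16 ± 4.33 (SD, n = 3 per group).

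The difference of FASN was 0.32 ± 0.40 (SE) on the log2 scale, with a 95% interval of -0.56 to 1.19 (limma adjusted p = 0.955). Without control replicate 4 its direction turned, to -0.16. By limma-voom, which gives a library with few reads less weight, the fold was 1.09 (0.460 to 2.57; adjusted p = 0.999). The ratio of read rates of high NEFA cultures to control replicates 2 and 5 was 0.904, with an exact 95% interval of 0.601 to 1.38 (counting error only).

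**Figure D2:**
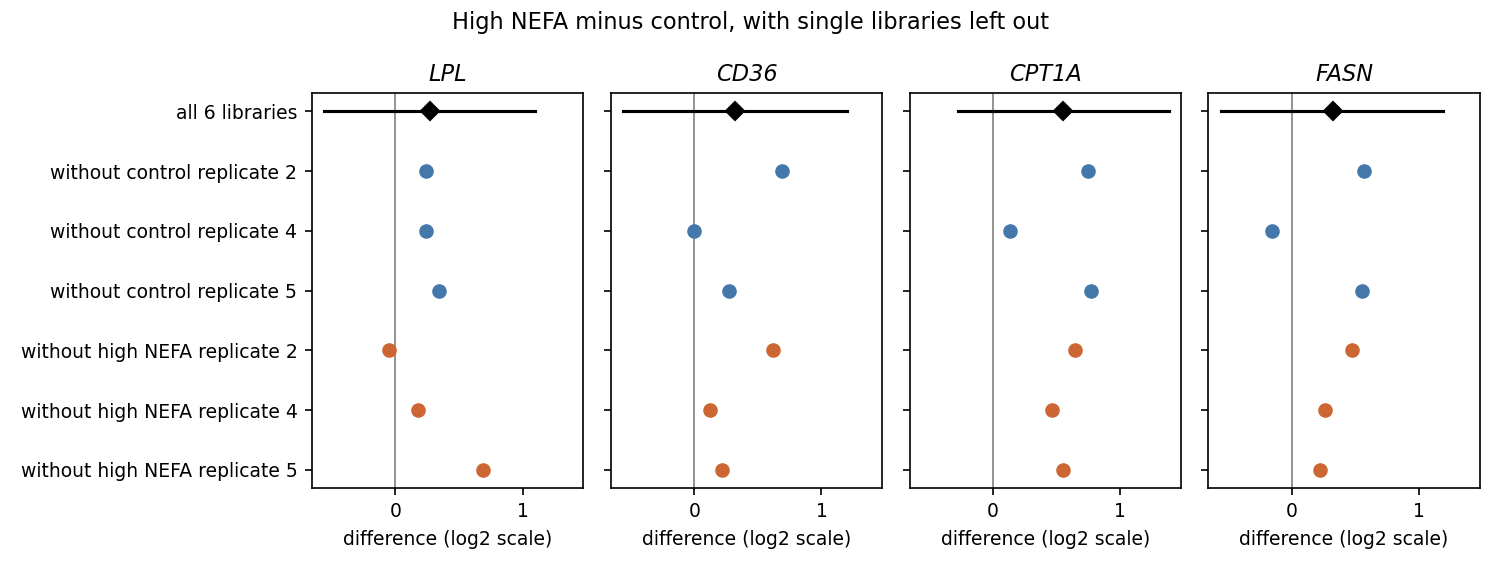
Difference between group means (high NEFA minus control, log2 scale of the deposited values) for the 4 tested genes; diamonds are all 6 libraries with the 95% limma interval as a line, and circles leave out 1 library (blue a control, orange a high NEFA library). All 4 intervals include 0, and the circles without control replicate 4 lie at -0.0017 for CD36, 0.13 for CPT1A and -0.16 for FASN.

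Control replicate 4 was the lowest library for CD36, CPT1A and FASN and not for LPL. On the deposited scale, its difference from the mean of the other controls was -1.26 for CPT1A, -1.43 for FASN, -0.97 for CD36 and -0.10 for LPL. Set against the lower of the other controls, FASN in control replicate 4 was at -1.42, a value that 2.99% of tested genes fell under, and CPT1A was at -1.23, which 4.66% fell under. CD36 was at -0.54, which 18.3% fell under. Its reads there were within counting error of the other controls combined (ratio of those to replicate 4 of 3.34, exact 95% limits 0.841 and 28.9). Control replicate 2 alone held 5.93 times the CD36 reads of replicate 4 for its size (1.36 to 53.7), beyond counting error. Replicate 4 held 0.431 times those of replicate 5 (0.0475 to 1.87), within counting error. LPL was at -0.01, which 39.6% of tested genes fell under, and the median over all tested genes was 0.19. For its size, control replicate 4 held 0.254 times the CPT1A reads of the other controls combined, and that library has 4 such reads; the exact 95% interval of the opposite ratio, 3.93, was 1.47 to 14.9. Outside the 2 most abundant genes, control replicate 4 held 204431 reads, against 204239 in control replicate 2 and 533128 in control replicate 5. It had the fewest detected genes of the 6 libraries, 9157, and the largest share of reads in those 2 genes, 55.5%. The part of these traits, or of its RNA, in these values was not tested.

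**Figure D3:**
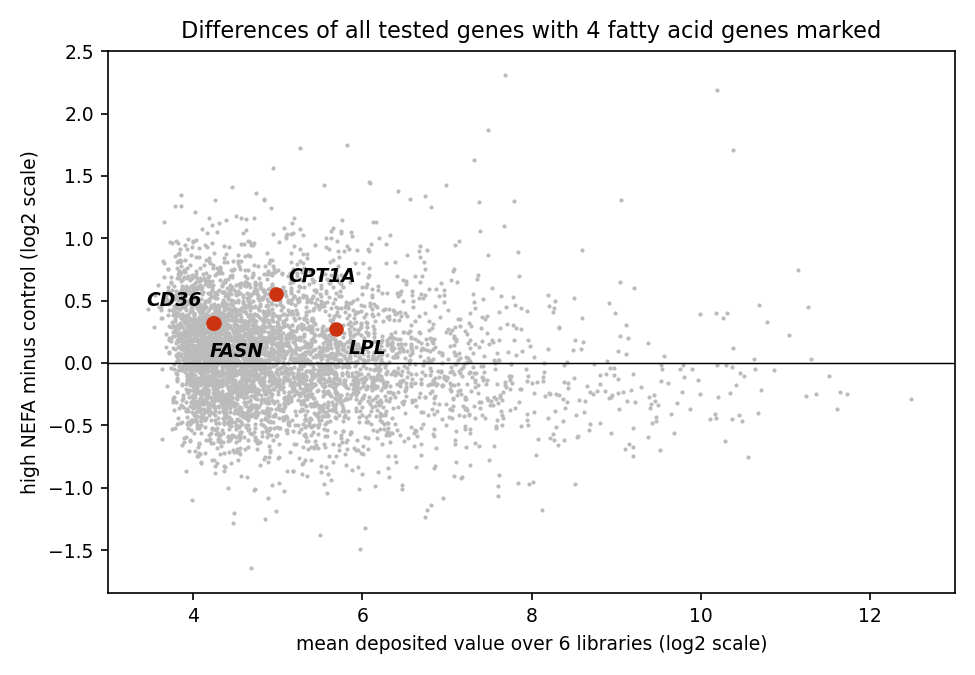
Difference between groups (high NEFA minus control, log2 scale) against the mean deposited value over 6 libraries (log2 scale) for the tested genes, in grey, with LPL, CD36, CPT1A and FASN in red; the points of CD36 and FASN nearly coincide, and 2 genes of higher mean lie outside the plotted range. The 4 red points, at 0.27 to 0.55, lie inside the cloud of the other genes.

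Relative to each other, the genes kept no fixed proportions across libraries. Of the reads of the 6 genes together, LPL took 36.8% of 68 reads, 75% of 28 and 44.6% of 166 in control replicates 2, 4 and 5. It took 63.5% of 156, 43.0% of 172 and 27.4% of 201 in high NEFA replicates 2, 4 and 5. The Wilson 95% intervals of high NEFA replicates 2 and 5, at 55.7% to 70.6% and 21.7% to 33.9%, did not meet. These shares do not depend on the scaling between libraries, and the range within each group spanned most of that of the other.

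LPL and CD36 together, the uptake genes, made up 57.4%, 82.1% and 53.0% of these reads in control replicates 2, 4 and 5 and 68.6%, 58.7% and 46.3% in high NEFA replicates 2, 4 and 5. CPT1A took 26.5%, 14.3% and 28.9% in the controls and 21.2%, 27.3% and 34.8% in the high NEFA libraries. The synthesis genes FASN and ACACA took 16.2%, 3.57% and 17.5% in the controls and 9.62%, 14.0% and 18.9% in the high NEFA libraries. The groups overlapped in all of these shares.

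**Figure D4:**
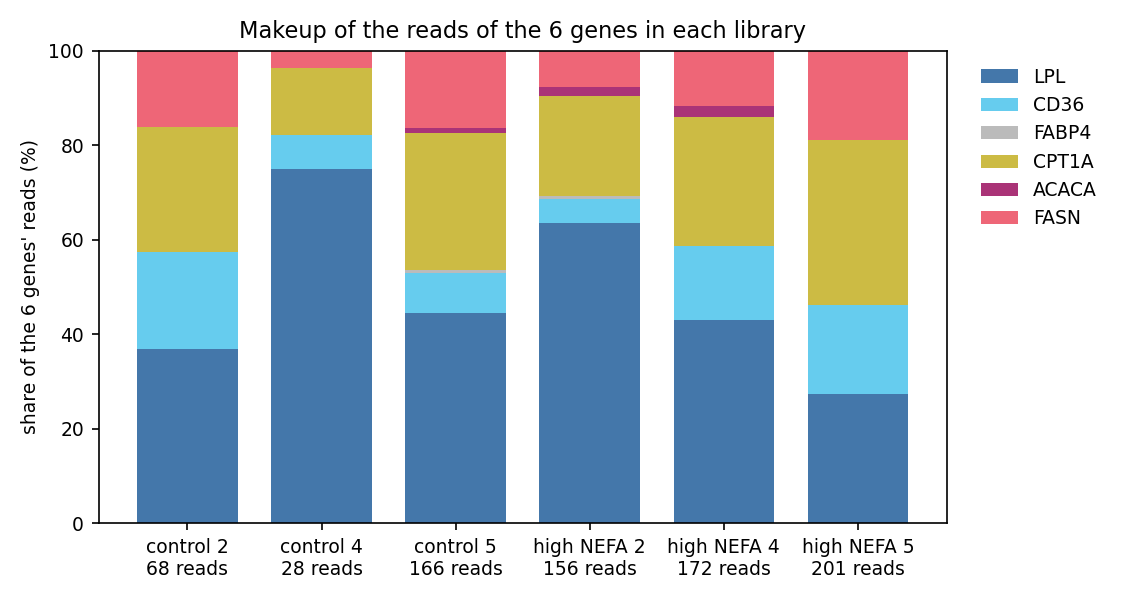
Share of the reads of the 6 genes (in %) taken by each gene, 1 bar for each library, with the number of reads under each bar. The share of LPL runs from 27.4% in high NEFA replicate 5 to 75% in control replicate 4, and FABP4 and ACACA are slivers or missing.

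The ratio of CPT1A to FASN reads sets RNA of an oxidation gene beside that of a synthesis gene within a library, and measures neither process. It was 1.64, 4 and 1.78 in control replicates 2, 4 and 5, the second of these resting on 1 FASN read, and 2.75, 2.35 and 1.84 in high NEFA replicates 2, 4 and 5. Controls averaged 2.47 ± 1.33 and high NEFA cultures 2.31 ± 0.455 (SD, n = 3 per group), so the groups differed by less than the spread between replicates. That control mean and its direction rest on replicate 4, whose ratio has exact 95% limits of 0.396 and 197. Without it the control mean was 1.71, and both remaining controls lay below the 3 high NEFA libraries, a difference with no test. That order appeared only once replicate 4 was left out, and it was within counting error. Exact 95% limits were 1.09 to 2.96 in control replicate 5 and 1.22 to 2.81 in high NEFA replicate 5. The ratio of LPL to CD36 reads ran from 1.79 to 10.5 in controls and from 1.45 to 12.4 in high NEFA cultures, a range that was wide in each.

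In the order of mean level, LPL at 53.6 scaled reads was followed by CPT1A at 29.9, CD36 at 14.7, FASN at 14.6, ACACA at 1.28 and FABP4 at 0.268. CD36 and FASN did not differ beyond their spread over libraries. LPL was above CPT1A in 5 of 6 libraries and below it in high NEFA replicate 5, at 55 against 70 reads. CPT1A was above FASN in all 6 libraries, and ACACA was below FASN in all 6.

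Across the 6 libraries, CPT1A and FASN had Pearson's r of 0.95 and Spearman's rho of 0.60 on the deposited scale. Without control replicate 4, r was 0.37. CPT1A had 106 tested genes with an r of at least 0.95, so this likeness is shared with many genes. LPL had 4 such genes. Its r was 0.17 with CPT1A, -0.24 with CD36 and -0.08 with FASN (-0.11, -0.52 and -0.84 without control replicate 4). CD36 had an r of 0.80 with FASN (rho 0.71) and 0.75 with CPT1A (rho 0.66). Without control replicate 4 these r were 0.70 and 0.56. The tested gene most like LPL was ENSBTAG00000011597 (r = 0.97, 6 libraries, and 0.97 without control replicate 4). The one most like CPT1A was ENSBTAG00000001209 (r = 0.99, 6 libraries, and 0.88 without control replicate 4). These values describe 6 libraries that share the low control replicate 4; they were picked as the highest among all tested genes and carry no test.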

How the data were processed

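RNA of 3 control and 3 high NEFA cultures was profiled with QuantSeq FWD 3′-tag libraries with molecular identifiers, read as single 100-base reads on one lane, per the labels' protocols. FastQC 0.11.2, Trimmomatic, STAR 2.7, featureCounts, DESeq2 and the build ARS-UCD1.2 are named in the submitters' processing notes. Whether the identifiers were used, and which annotation release and counting settings, is not given in the sources used here.

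One deposited table, of 15265 genes, holds values on a log2 scale, which the authors scaled between libraries and transformed in a way the labels do not name. Every row has at least 1 read. Low values rise in steps, and the 69 to 172 steps of each library lie on 1 curve, from which reads were recovered. Beyond these steps, 100% of distinct values up to 500 reads, 98.1% up to 1000 and 88.0% above were whole within 0.1 reads. The implied size factors were those of median-of-ratios scaling within 0.0099%. Totals include 2 genes (43.1% to 55.5% of reads) whose reads are approximate.

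Genes with at least 10 reads per library of median size (14.1 CPM) in 3 libraries and 15 reads in all were tested with limma 3.58.1 in R 4.3.3 on the deposited values (trend, robust, two-sided, Benjamini-Hochberg, threshold 0.05). A difference on that scale understates the fold of rare genes. Ratios of read rates have exact conditional binomial intervals and shares Wilson intervals (scipy 1.17.1, 95%), which cover counting error only, since reads are not known to be independent molecules; a count of 0 allows up to 3 reads. Scripts were tested on simulated data.

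All 7 genes were to be named, with the 1 tested gene most like each, of which at most 2 could be given by identifier; LPL and CPT1A were taken as the most abundant. Genes and lists were chosen with earlier results of these data known. The lists of further pathway genes and cell type markers were not used here, for want of names. Alternatives were the filter, pseudocount, scaling, test, replicate block and leaving out each library.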

Additional observations from a re-analysis of the deposited data

How the results depend on the processing

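Under all 16 alternatives, 0 genes and 0 of the fatty acid genes had an adjusted p under 0.05, with a smallest adjusted p of 0.385 over all genes, without control replicate 5. Directions turned when 1 library was left out: LPL to -0.05 without high NEFA replicate 2, CD36 to -0.0017 and FASN to -0.16 without control replicate 4, which also took CPT1A from 0.55 to 0.13. Over the 6 fits that leave out 1 library the differences ran from -0.05 to 0.69 (LPL), -0.0017 to 0.69 (CD36), 0.13 to 0.77 (CPT1A) and -0.16 to 0.57 (FASN). Over the other 10 alternatives they ran from 0.21 to 0.52, 0.32 to 0.77, 0.38 to 1.0 and 0.12 to 0.85 in the same order, all positive, and partly on scales that compress low values less. FASN was at 0.12 with limma-voom and at 0.85 with scaling by total reads; the cause was not tested.

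Before adjustment, 145 genes had a p under 0.05 in the main test, against 39 to 571 when 1 library was left out, 448 with no filter (15265 genes), 258 with 5 CPM (7681 genes), 95 by limma-voom and 72 by quasi-Poisson F test. The samples share replicate numbers but were treated as unpaired in the main test. Their deviations from group means had r of 0.18, -0.16 and 0.43 for numbers 2, 4 and 5, not all over 0.1. With 3 libraries per group these values cannot settle whether the samples were paired, and the labels do not say. A replicate block gave 0 calls and 239 genes with a p under 0.05 before adjustment; the 4 differences are the same by construction. The 95% intervals of these genes had half-widths of 0.83 to 0.88 on the log2 scale, against a median of 0.73 over tested genes, and the limma-voom intervals of all 4 include a 2-fold rise; the part of depth in these widths was not tested. FABP4 and ACACA, with 2 and 9 reads in all, are limited by their few reads, whose cause was not tested.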
